A study of Mus musculus with 2 samples.

Results

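The 10 genes described here encode cytokines of the interleukin (IL) 10 family and chains of their receptors. They were chosen by name, as features with exactly 1 gene symbol in the platform annotation equal to Il10, Il19, Il20, Il22, Il24, Il10ra, Il10rb, Il20ra, Il20rb or Il22ra1. All 10 listed genes were found, each through 1 feature, among 28280 named genes, and 0 features with several symbols included one of them. The arrays profiled cells sorted from the small intestine and labelled ILCreg, short for regulatory innate lymphoid cell. The donors were IL-10-GFP knockin mice of the strain C57BL/6, aged 8 weeks. There were 2 arrays of this 1 group and no other population was analysed here. All of the mice carried the reporter allele at the Il10 locus; how it was built, how the sort was gated and how many mice made a sample were not stated in the labels. Separate mice or sorts are not recorded for the samples, and their spread may therefore be only technical.

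Interleukin 10 is secreted by many leukocytes and limits inflammatory responses of macrophages and other cells, and mice that lack it or its receptor develop colitis. Its relatives share its helical fold but act mainly on epithelium: IL-22, made by lymphocytes, induces antimicrobial and repair genes in intestinal epithelium, while IL-19, IL-20 and IL-24 are best known from skin. Each cytokine binds a pair of class II receptor chains. Il10ra with Il10rb binds IL-10, Il22ra1 with Il10rb binds IL-22, Il20ra with Il20rb binds IL-19, IL-20 and IL-24, and Il22ra1 with Il20rb binds IL-20 and IL-24. The bound receptors signal through the kinases Jak1 and Tyk2 and chiefly through the transcription factor Stat3.

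Values are the deposited signals, read as log2 from their range between 2.10 and 19.86; the base is not stated. Array medians were 5.02 and 4.90. A whole-transcript array gives some signal for genes that are not transcribed, so 1678 olfactory, vomeronasal and taste receptor genes served as a reference for it. Their 95th percentile was the threshold, at 6.74 and 6.19 on the arrays of replicates 1 and 2. A gene was called where its signal on each array exceeded the threshold of that array. The called share was 31.7% over the named genes and 38.9% over protein-coding genes outside the reference, against 2.44% of the reference genes. A gene that was not called had signal like that of the reference genes, and may still have been transcribed. Probes differ in affinity, so signals do not order different genes by transcript number.

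Sorted purity was stated to exceed 95%, but markers of other cell types were called on the same arrays. Of the innate lymphoid cell markers, 5 of 7 measured were called, among them Ptprc, Il7r, Id2 and Rora, while Thy1 and Zbtb16 were not. The 4 called genes named here are also transcribed in other leukocytes, so the count does not single out innate lymphoid cells. Also called were 9 of 11 intestinal epithelial markers, 8 of 9 macrophage markers, 5 of 6 B and plasma cell markers, 4 of 7 T cell markers and 5 of 5 stromal markers. Only 1 of 5 dendritic cell markers and 0 of 6 mast cell markers were called. The background for all of these counts was 31.7% of the named genes and 38.9% of the protein-coding genes, and the lists are short. The B and plasma cell count was 2 of 6 when the threshold was the 99th percentile. The innate lymphoid cell and T cell counts were then 4 of 7 and 3 of 7. As the log2 of the sum of linear signals, the stromal markers came to 19.38 and 19.51 on the arrays of replicates 1 and 2, and the B and plasma cell markers to 17.55 and 18.18. The epithelial markers came to 16.38 and 16.56 and the macrophage markers to 15.19 and 15.21. The innate lymphoid cell markers came to 13.38 and 13.24 and the T cell markers to 11.09 and 11.27. The dendritic cell markers came to 9.56 and 9.40 and the mast cell markers to 7.52 and 7.39. The stromal sum was largely Dcn, at 19.28 and 19.34. The B and plasma cell sum was largely Jchain, at 17.47 and 18.11. Ptprc (12.28 and 12.14) and Id2 (12.23 and 11.93) made up most of the innate lymphoid sum. The lists differ in length and probes in affinity, so the sums do not rank the cell types by RNA. The part of these cells in the signal of any gene below was not tested, and fewer cells of a type cannot be told apart from less RNA per cell in such bulk samples.

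Of the 10 family genes, 4 were called, beside 31.7% of the named genes and 38.9% of the protein-coding genes, so the share was near the background. The 4 were 1 of the 5 cytokines, Il10, and 3 of the 5 receptor chains, Il10rb, Il22ra1 and Il10ra. The other 6 lay below the threshold on both arrays, and 0 of the 10 exceeded it on 1 array alone. The family was thus split with a gap between the sets. The lowest single-array value among the called genes was 7.41 and the highest among the others 5.33. The median over all 10 was 4.97, beside 5.43 over all named genes and 4.47 over the reference genes.

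**Figure D1:**
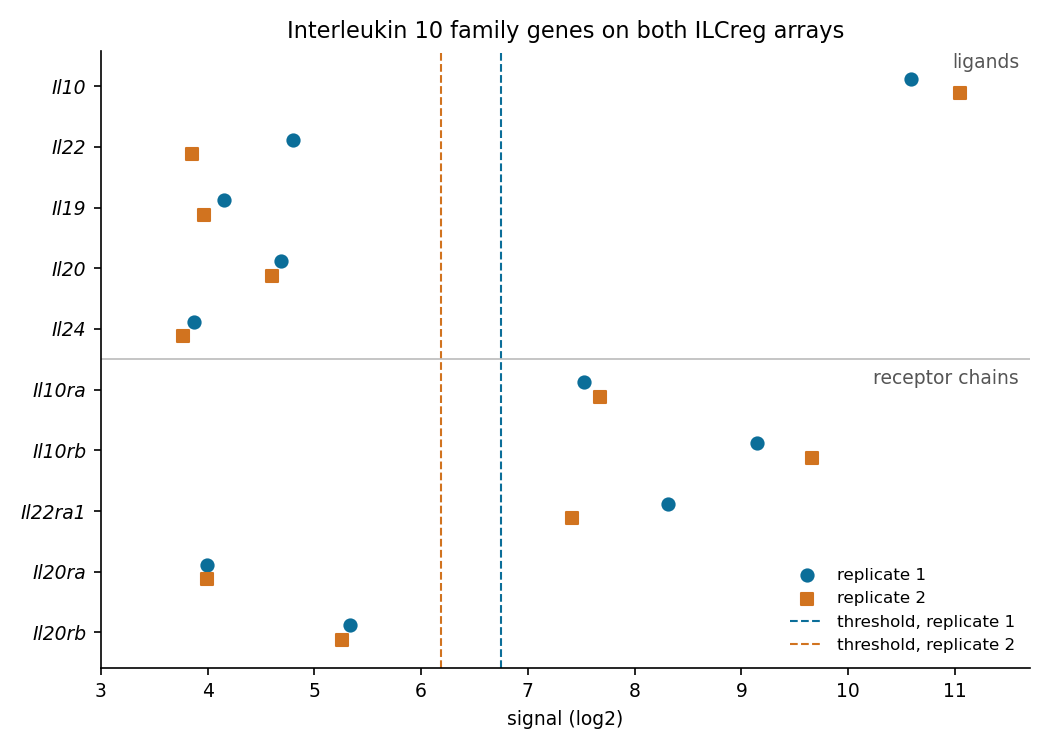
Signal (log2, horizontal axis) of each family gene on the array of replicate 1 (circles) and replicate 2 (squares), with cytokines above the grey line and receptor chains below it. Dashed lines are the array thresholds of 6.74 and 6.19; Il10, Il10ra, Il10rb and Il22ra1 lie to the right of both and the other 6 to the left of both.

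Among the cytokines, Il10 stood apart from its relatives. Il10 had a signal of 10.59 in replicate 1 and 11.05 in replicate 2, a mean of 10.82 ± 0.32 (SD, n = 2). Both values exceeded every reference gene and lay 3.85 and 4.86 above the threshold of their array. Among all named genes Il10 was at percentiles 93.3 and 94.3. The cells came from reporter mice for this gene, and the gating was not stated. Whether the cells were selected for Il10, or the allele altered the signal read at Il10, was not tested.

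Il22, the cytokine by which many intestinal innate lymphoid cells act on epithelium, was not called. Il22 had signals of 4.80 and 3.85 on the arrays of replicates 1 and 2, which placed it at -1.94 and -2.34 relative to the thresholds. Its SD of 0.67 was the highest of the 10 genes, and its position among the reference genes moved with it, being higher than 61.5% of them in replicate 1 and than 18.0% in replicate 2. Mice carry a near-identical copy of this gene, Iltifb, whose probes may share signal with Il22. The feature annotated to Iltifb gave 5.44 and 4.85 and was not called either.

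The cytokines of the IL-20 group were all at reference level. Il19 had signals of 4.15 and 3.97 on the arrays of replicates 1 and 2, Il20 had 4.68 and 4.60, and Il24 had 3.87 and 3.77. The arrays differed little for these 3 genes, with SDs from 0.06 to 0.13. Il24 was the lowest of the 10 family genes on both arrays, above 15.8% and 14.2% of the reference genes.

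**Figure D2:**
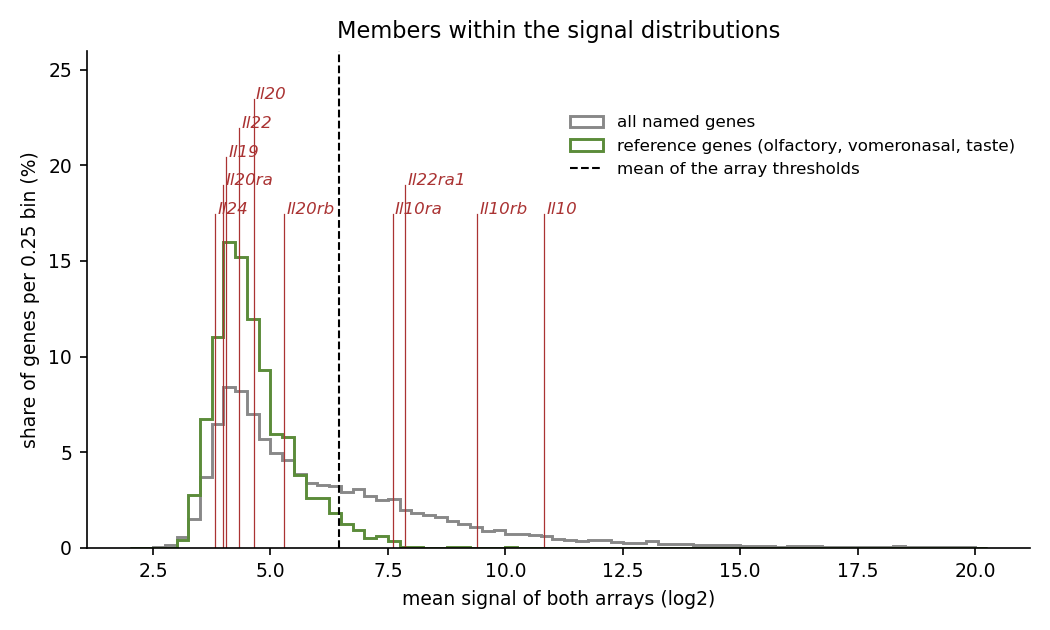
Distribution of mean signal (log2, horizontal axis; share of genes per bin in %, vertical axis) for all named genes (grey) and the reference genes (green), with each family gene marked by a red line at its mean. The mean threshold (dashed) separates Il10, Il10rb, Il22ra1 and Il10ra, between 7.60 and 10.82, from the other 6, which lie within the bulk of the reference genes.

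The receptor for IL-10 was called in full. Il10rb, the chain shared with the IL-22 and interferon lambda receptors, had signals of 9.15 and 9.66 on the arrays of replicates 1 and 2, a mean of 9.40 ± 0.36 (SD, n = 2). Il10ra, the chain specific to IL-10 and found mainly on leukocytes, had 7.52 and 7.68, a mean of 7.60 ± 0.11 (SD, n = 2). Il10rb was 2.40 and 3.47 above the thresholds, whereas Il10ra was only 0.78 and 1.49 above them. When the threshold was raised to the 99th percentile, Il10ra fell 0.39 short on its lower array and was no longer called. Other leukocyte genes on the same arrays were Ptprc at 12.28 and 12.14 and the IL-7 receptor gene Il7r at 8.52 and 9.32. The macrophage gene Cd68 was at 9.53 and 10.19 and the T cell gene Cd3e, the highest of its list, at 9.68 and 9.90. Cd163 of the macrophage list was not called, nor were Cd247, Cd8a and Cd28 of the T cell list. Which cells gave the Il10ra signal was not tested.

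The Il22ra1 chain of the IL-22 receptor was called although Il22 was not. Il22ra1, which is known from epithelial and other non-haematopoietic cells rather than lymphocytes, had signals of 8.31 and 7.41 on the arrays of replicates 1 and 2, a mean of 7.86 ± 0.64 (SD, n = 2). These lay 1.57 and 1.22 above the thresholds, and 0.21 above on the lower array with the 99th percentile. On the same arrays the epithelial adhesion gene Epcam was at 12.08 and 11.85 and the keratin gene Krt8 at 15.42 and 15.76. Of the epithelial markers only the stem cell gene Lgr5 and the endocrine gene Chga were not called. The part of epithelial RNA in the Il22ra1 signal was not tested.

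Neither chain of the type I IL-20 receptor was called. Il20ra had nearly the same signal on both arrays, with a mean of 3.996 and an SD of 0.00067. Il20rb had 5.33 and 5.26, the highest values among the 6 genes that were not called, yet 77.6% and 83.4% of the reference genes were lower on the same arrays, so it was within the reference range. Taken by complex, 2 of 4 receptor pairs had both chains called, those for IL-10 and IL-22. With the 99th percentile it was 1 of 4, since Il10ra was no longer called. The pairs are not independent, as Il10rb is in both of the called ones. Single genes were called in 38.9% of protein-coding cases, and no such share was computed for pairs of genes. Whether the called chains of a pair were transcribed in the same cells was not tested. The type II IL-20 receptor had 1 of its 2 chains called, Il22ra1, and the type I receptor 0.

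**Figure D3:**
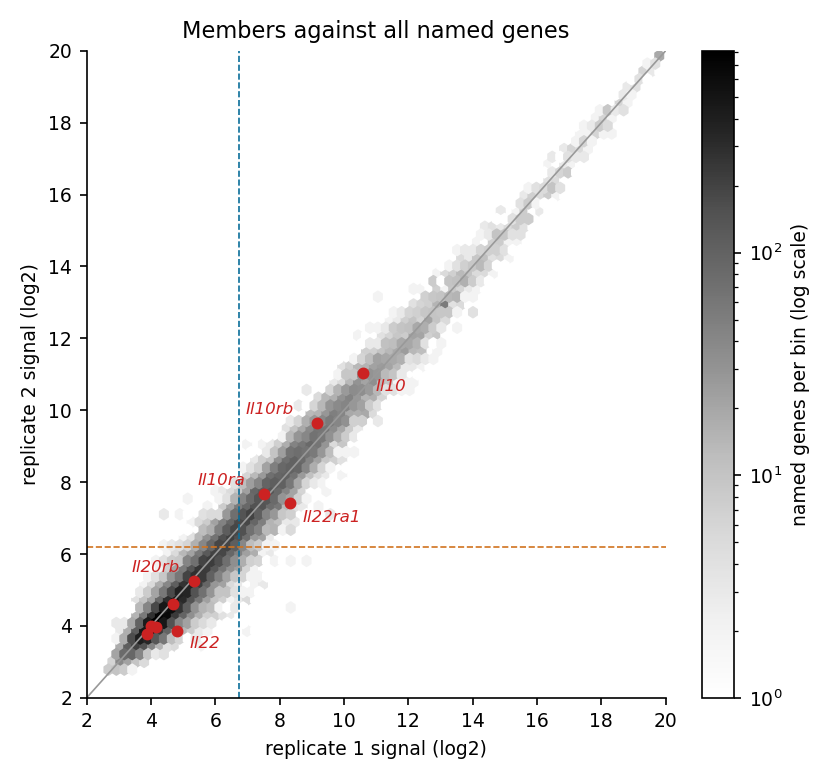
Signal of all named genes on the array of replicate 1 (log2, horizontal axis) and replicate 2 (log2, vertical axis) as grey bins shaded by gene number on a log scale, with the family genes as red points. Il22 (4.80 and 3.85) and Il22ra1 (8.31 and 7.41) lie below the diagonal, and Il10 and Il10rb lie above it; dashed lines are the array thresholds.

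Differences between the arrays were taken as replicate 2 minus replicate 1, relative to the median gene, which differed by -0.05. None of the 4 called family genes differed by more than 2-fold (0 of 4), beside 4.16% of all called genes. Of the 6 genes not called, 0 passed that limit too, beside 3.12% of the named genes that were not called. Il10rb and Il10 were higher on the array of replicate 2, by 0.56 and 0.51, and 79.5% and 75.6% of called genes had smaller absolute differences. Il10ra differed by 0.20. Il22ra1 went the other way, by -0.85, more than 92.7% of called genes in absolute size. Il22 differed by -0.90, more than 95.9% of the genes that were not called. These are single arrays against each other and have no replicate check.

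The epithelial markers did not differ in 1 direction beside Il22ra1. Of 11, 6 were lower and 5 higher in replicate 2, and their median was -0.18. The absorptive genes Fabp1 (-1.09) and Vil1 (-0.38) were among the lower ones, and Krt8 (0.39) among the higher ones. The macrophage markers, beside Il10 and Il10ra, were also divided, 4 of 9 being higher in replicate 2. So were the innate lymphoid cell markers, with 3 of 7 higher, among them Il7r (0.85) and Rora (0.63), and 4 lower. All 6 B and plasma cell markers were higher in replicate 2, with a median of 0.50, and 5 of 7 T cell markers were, with Cd4 at 0.92. The collagen genes among the stromal markers were higher there by 1.74 (Col1a1) to 2.08 (Col3a1), but the stromal genes Dcn and Lum by only 0.11 and 0.05. The part of these shifts in the differences of the family genes was not tested.

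Il10, Il19, Il20 and Il24 lie next to each other on 1 chromosome, and in this cluster Il10 was the single called gene of 4. The reporter allele of these mice lies in this cluster, and the part of the allele or of the sort in that contrast was not tested. In the RefSeq gene table of the assembly GRCm38.p6, used here for gene order only, the 3 protein-coding genes beyond Il24 are Fcmr, Pigr and Fcamr, and the 3 beyond Il10 are Mapkapk2, Dyrk3 and Eif2d. Of these 6 flanking genes 3 were called, beside 38.9% of the protein-coding genes. Pigr, which encodes the receptor that carries IgA and IgM across epithelium, had signals of 14.87 and 14.79 on the arrays of replicates 1 and 2. Mapkapk2, a kinase downstream of p38 that stabilises cytokine transcripts, had 12.35 and 12.21, and Eif2d, a translation factor, had 7.01 and 7.35. The Fc receptor genes Fcmr (5.02 and 4.98) and Fcamr (4.97 and 4.82) were at reference level. Dyrk3, a protein kinase gene, gave 6.21 and 6.46 and exceeded the threshold only on the array of replicate 2.

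**Figure D4:**
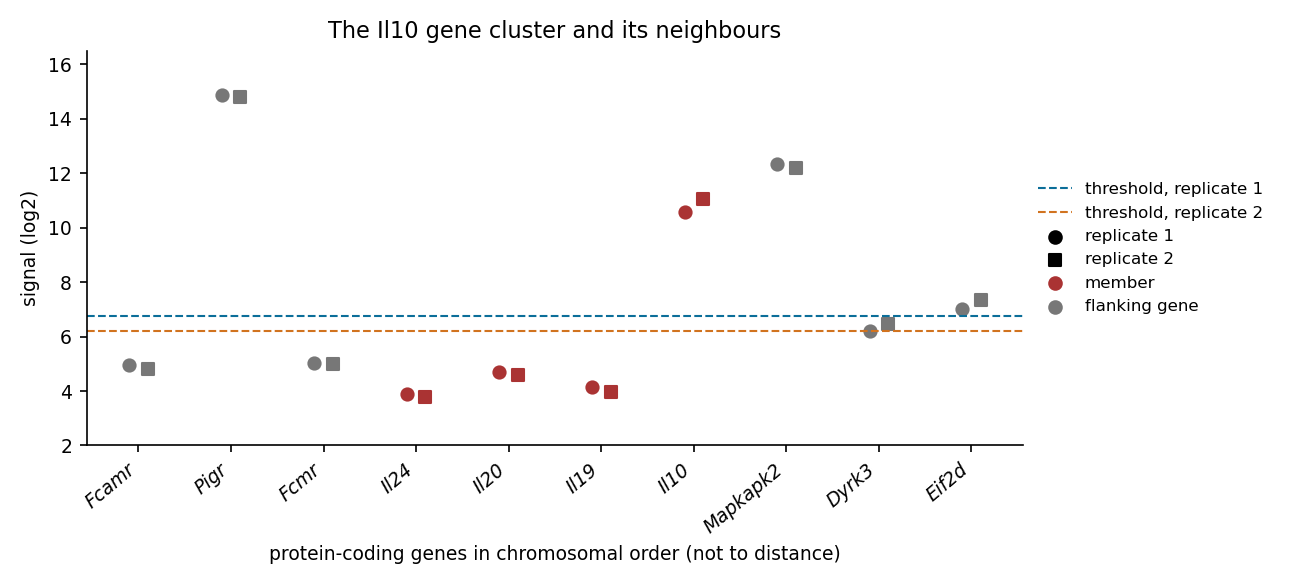
Signal (log2, vertical axis) of 10 neighbouring protein-coding genes in chromosomal order, not drawn to distance, on the arrays of replicate 1 (circles) and replicate 2 (squares). Red marks the family genes and grey the flanking genes; Il10, at 10.59 and 11.05, lies beside 3 family genes between 3.77 and 4.68, and dashed lines are the array thresholds.

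Other class II receptor family genes, listed with the ligand genes Ifnl2 and Ifnl3, were likewise divided, with 5 of 9 called and a median of 8.91. Ligands of the type I and type II interferon receptors were not in the list. The called share was 38.9% over protein-coding genes, and the median over all named genes was 5.43. All 4 chains of the type I and type II interferon receptors were called, among them Ifngr1 (13.38 and 13.91) and Ifngr2 (8.57 and 9.25), as was F3, the tissue factor that starts coagulation, at 10.71 and 10.70. Il22ra2, which encodes the soluble binding protein that blocks IL-22, was the lowest of the list at 4.34 and 3.77. Ifnlr1, the chain that pairs with Il10rb to bind interferon lambda, had 4.38 and 4.16, and the interferon lambda genes lay between 4.97 and 5.31. Of the Il10rb partners, Il10ra and Il22ra1 were thus called and Ifnlr1 was not.

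The kinases and transcription factors below the receptors were called, and their feedback inhibitors were not. Of 7 measured genes 5 were called, with a median of 7.75, beside 38.9% of protein-coding genes and a median of 5.43 over all named genes. Jak1 had signals of 11.81 and 12.16 on the arrays of replicates 1 and 2, and Stat3 had 11.67 and 12.14. Tyk2 was closer to the threshold at 7.39 and 6.70, and differed most between the arrays. Socs3, the inhibitor that Stat3 induces, had 4.27 and 4.18, and Socs1 had 4.82 and 4.69, both within the reference range. With the 99th percentile of the reference genes, 3 of the 7 were called.

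Genes that IL-10 is known to induce in macrophages were called in 7 of 10 cases, with a median of 8.46. Beside them, 38.9% of protein-coding genes were called and the named-gene median was 5.43. The difference from that background was not tested. Il4ra, a receptor chain for IL-4 and IL-13, was highest at 13.73 and 13.78. Il1rn, the IL-1 receptor antagonist gene, had 9.71 and 9.79, and Bcl3, a nuclear regulator of NF-kB, had 7.08 and 7.67 with the largest difference of the list. Socs3, Nfil3 and Ddit4 were not called, with Socs3 the lowest. With the 99th percentile of the reference genes, 5 of the 10 were called. Macrophage markers were called on the same arrays, and other stimuli also induce these genes.

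Genes that IL-22 is known to induce in epithelium were split evenly, with 6 of 12 called and a median of 6.42. Over protein-coding genes the called share was 38.9%, and the median over all named genes was 5.43. The difference from that background was not tested. Reg3b, an antimicrobial lectin gene, was highest at 13.34 and 13.15 on the arrays of replicates 1 and 2, and its relative Reg3g had 9.45 and 9.68. Duoxa2, which encodes a maturation factor of the oxidase Duox2, had 11.15 and 10.97. Lcn2, which encodes an iron-scavenging lipocalin, was the lowest at 4.97 and 4.56. S100a8, a calprotectin subunit gene abundant in neutrophils, was not called at 5.72 and 4.24 and differed most, by -1.44. Relative to the median gene, 10 of the 12 were lower in replicate 2 and the list median was -0.35. By construction, about as many of all named genes are lower as are higher. The 6 genes that were not called were all among the 10. Of the 6 that were called, 4 were lower and 2 higher, with Reg3b at -0.14 and Reg3g at 0.28. With the 99th percentile of the reference genes, 4 of the 12 were called. The part of IL-22 or of epithelial RNA in the values of this list was not tested.

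**Figure D5:**
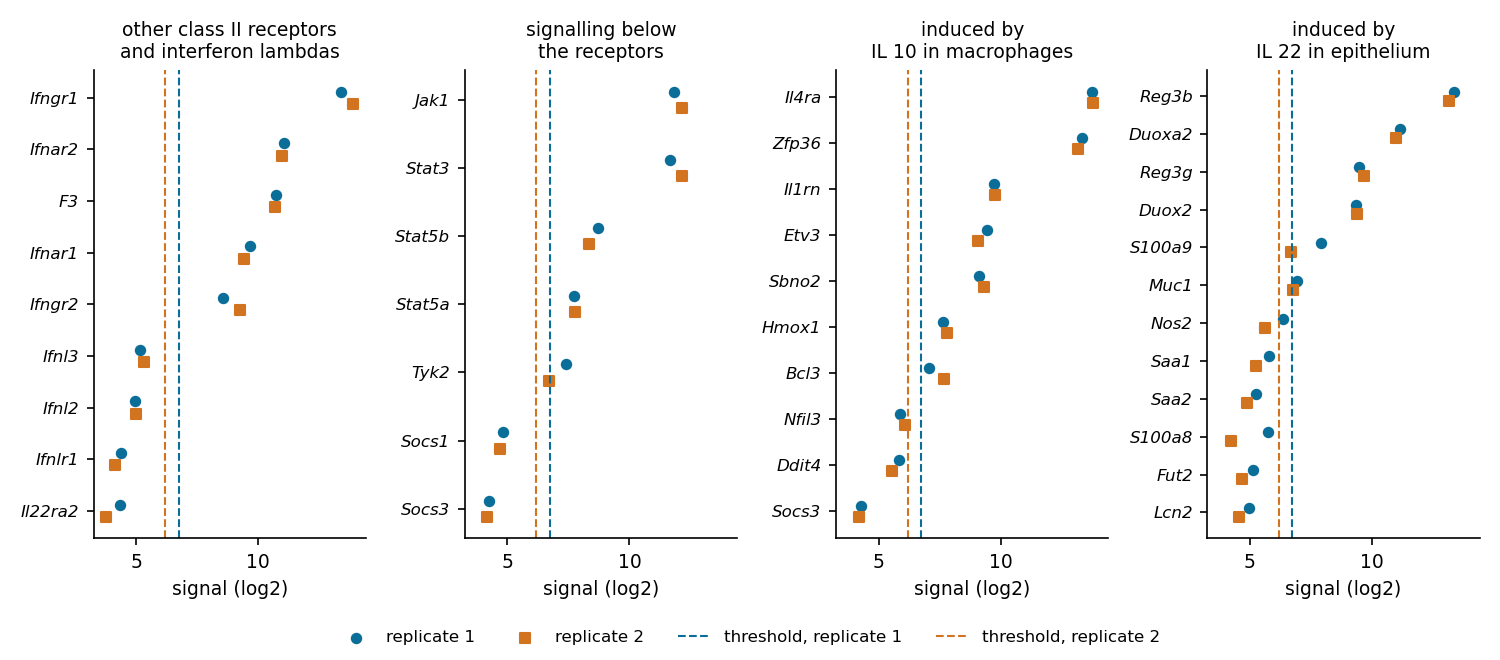
Signal (log2, horizontal axis) on the arrays of replicate 1 (circles) and replicate 2 (squares) for 4 gene lists: other class II receptor family genes with interferon lambdas, signalling genes, and genes induced by IL-10 and IL-22. Dashed lines are the array thresholds; Jak1 and Stat3 lie to the right of both, Socs1, Socs3, Ifnlr1 and Il22ra2 to the left of both.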

How the data were processed

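RNA of sorted ILCregs was hybridised to 2 whole-transcript arrays, per the labels' protocols. The deposited table gives 1 value per feature, taken here as log2 signal; the submitters' processing notes name MAS5 without role or version. The labels do not state background correction, scaling, log base or genome build, and no coordinates are printed. Of 61344 features, 28573 had 1 distinct gene symbol (repeats of the same symbol counted once), 2014 several and 30757 none. Symbols were updated through Entrez identifiers of the GRCm38.p6 gene table, where 21205 of 21456 matched. For 215 genes with several features the one of highest mean was used.

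The deposited log2 values were used unnormalized, with Python 3.11.15 and pandas 2.3.3. Calling and centring were checked on simulated data. The planted genes lay far above the simulated reference, so the check does not bear on genes near the threshold, such as Il10ra. With 1 group of 2 arrays nothing could be tested between groups, and there are no p-values; the number of arrays limits precision. The members, lists, threshold and naming rule (all members; the highest, lowest and most different genes of each list, up to 6 a list; 3 flanking genes on each side) were chosen with earlier results of these data known. Some marker genes, and Iltifb, were named after their values were seen. List genes without a feature of 1 symbol were not analysed here. Other percentiles, another reference, quantile normalization, the median over features and each array alone were tried.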

Additional observations from a re-analysis of the deposited data

How the results depend on the processing

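The count of 4 called family genes was the same with the 90th percentile of the reference genes and with keratin-associated protein and Rhox genes as the reference. It was also 4 after quantile normalization (which keeps ranks), with the median over features, and without replicate 1 or replicate 2. The median over features could not change it, since each family gene had 1 feature. Leaving out 1 array could not either, since 0 of the 10 exceeded the threshold on 1 array alone. Quantile normalization left it little room to change. The count was 3 with the 99th percentile, where Il10ra lay at -0.39 relative to the threshold on its lower array. The called share of all named genes fell by construction there too, to 5589 genes, against 8973 with the 95th. At the 99th percentile the signalling list had 3 of 7 called and the B and plasma cell list 2 of 6. The list induced by IL-10 had 5 of 10 called, against 7, and that induced by IL-22 had 4 of 12, against 6. The innate lymphoid cell list had 4 of 7, against 5, and the T cell list 3 of 7, against 4. Counts of the remaining lists did not change there. Of the dendritic cell list 1 to 2 of 5 were called when 1 array was left out. Receptor pairs with both chains called were 1 of 4 at the 99th percentile, against 2 of 4. For these counts and the family's median difference, 96 of 100 alternative values stayed within 1.5 times the reported value or, for the difference, within the replicate SD of all named genes, 0.31. For single genes and the count over all named genes, 66 of 97 did, 30 moved further and 1, Il10ra, changed side. Both tallies include settings that could not change the value, such as the median over features for the family genes. Most of the 30 were distances from a threshold that had itself been moved or from that of 1 array; without replicate 1, Il10ra lay 1.49 above it, against 0.78. The median difference of the family between the arrays was -0.03, and -0.08 without centring and 0.03 after quantile normalization. The sign was kept by 9 of 10 genes without centring and by 8 of 10 after quantile normalization. The exceptions were Il20ra without centring and Il20 and Il20rb after quantile normalization, all 3 near 0. With 1 array left out a difference has no value. No paired analysis was possible because the series has 1 group.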
